A study of Mus musculus with 21 samples.

Results

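Killer lectin-like receptors are C-type lectin-like proteins of the cell surface, best known from natural killer (NK) cells and also carried by activated and memory CD8 T cells. The 7 genes described here, Klrd1, Klrc1, Klrc2, Klrk1, Klre1, Klra7 and Klrg1, are 7 of the 17516 genes listed in every table. These genes were taken by name with no cut on a measured value, but with earlier results of these data known. They were followed through 21 libraries of single mouse CD8 T cells. Klrd1 and Klrk1 were the members with enough RNA to compare between libraries, and both changed with the cytokine, its dose and the day of culture. The other 5 never reached 20 CPM (counts scaled to the same total in every library), and 92.2% of the naive cells that held at least 1 of them also held Ccl5.

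OT1 CD8 T cells come from mice with a transgenic T cell receptor specific for a peptide of ovalbumin. The day 0 library held naive cells taken before expansion. All other libraries held cells that had been activated on day 0 with anti-CD3 and anti-CD28 beads. Of these, 18 were grown in IL-2, IL-15 or IL-2v, which the labels describe as a mutant IL-2, at doses of 5 and 50 IU/mL for 3, 5 or 10 days, and 2 were grown without added cytokine for 3 or 5 days. Each condition had 1 library, so no difference has a replicate check and no test was made. Intervals cover counting error only. The titles were followed for 6 libraries whose treatment labels differ from them: interleukin-3 stands on the 3 libraries titled as high-dose IL-2, and interleukin-16 on the 3 titled as high-dose IL-15 (50 IU/mL). The extraction protocol describes a sort of CD44-positive, CD45.1-positive CD8 cells from tumours, whereas the growth protocol describes culture.

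The libraries held 3250 to 7105 cells and 10589950 to 32648496 unique molecular identifiers (UMIs, tags that mark captured RNA molecules), with a median of 3016 to 5065 UMIs per cell. Pairs of libraries shared 1 to 19 cell barcodes, at most 0.340% of the smaller library. Of the T cell markers, Cd3d was in 93.0% to 99.5% of cells per library, Cd3e in 72.0% to 92.8% and Cd8b1 in 54.6% to 92.0%. Cd8a was in fewer cells, 37.0% to 74.2%, lowest on day 5 with 50 IU/mL IL-2, the library with the median of 3016 UMIs per cell. These shares, like those of Trdc and cycling cells below, used all UMIs of each cell and so also reflect depth. The myeloid list summed to 62.5 to 128.5 CPM, nearly all of it Cst3, with Lyz2 and Csf1r under 1 CPM in every library. Of 7 NK cell markers, Ncr1, Klra8 and Klra4 stayed under 1 CPM in every library. The summed level of the list ran from 0.515 CPM on day 10 with 5 IU/mL IL-15 to 135.3 CPM on day 10 with 50 IU/mL IL-2, where Fcer1g gave 113.2 CPM and Klrb1c 21.3 CPM. The 4 markers of innate-like and gamma delta T cells summed to 56.3 CPM on day 3 with 50 IU/mL IL-2, which was also the library lowest in Klrd1, and up to 324.1 CPM on day 10 with 5 IU/mL IL-2. Of these, Zbtb16 stayed under 1 CPM in every library and Trdc was in 17.0% to 42.2% of cells. Cells with a UMI of the cycling genes Mki67 or Top2a made up 3.01% of naive cells and 5.21% to 86.9% of cells in the other libraries.

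CD94, encoded by Klrd1, pairs with an NKG2 chain to form a receptor for the nonclassical MHC molecule encoded by H2-T23. NKG2A, encoded by Klrc1, carries inhibitory motifs, while NKG2C, encoded by Klrc2, signals through an activating adaptor. NKG2D, encoded by Klrk1, is a receptor for stress-induced ligands and acts as a costimulator in CD8 T cells through the adaptor DAP10, encoded by Hcst. Klra7 encodes Ly49G, an inhibitory receptor for classical MHC class I. Klrg1 encodes an inhibitory receptor for cadherins that marks terminally differentiated effector T cells. Klre1 encodes a chain that pairs with other receptors of the same gene cluster.

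All 7 genes lie on mouse chromosome 6 (GRCm38). The start site of Klre1 (129577905 to 129585827, plus strand) lies at -13.9 kb from that of Klrd1 (129591782 to 129598775, plus strand). Klrk1 (129610323 to 129623864), Klrc2 (129647496 to 129660689) and Klrc1 (129666015 to 129678973), all on the minus strand, have start sites 32.1, 68.9 and 87.2 kb beyond it. Klra7 (130218605 to 130233322, minus strand) starts 641.5 kb away. Klrg1 (122270596 to 122282882, minus strand) lies apart, at -7308.9 kb on the same scale. Of the 50-base stretches in the exons of Klrc1, 36.6% also occur in Klrc2, and 12.3% of those of Klra7 occur in the pseudogene Klra13-ps, so counts of Klrc1, Klrc2 and Klra7 are uncertain where reads fell in the shared stretches.

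Promoters of Klrk1 and of its inhibitory neighbour Klrc1 are shown because both hold the same short motif, given as a description and not as a binding site. They are 250 bases before the start site on the minus strand from RefSeq (GRCm38.p6), at chr6:129623865-129624114 and chr6:129678974-129679223, written 5′ to 3′ along the gene. Capitals mark the RUNX motif TGTGGT or its reverse complement ACCACA.
Klrk1: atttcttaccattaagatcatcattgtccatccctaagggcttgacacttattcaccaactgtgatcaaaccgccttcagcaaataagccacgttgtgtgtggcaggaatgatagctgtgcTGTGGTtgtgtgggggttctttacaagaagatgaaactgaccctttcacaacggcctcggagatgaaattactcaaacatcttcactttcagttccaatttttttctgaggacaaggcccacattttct
Klrc1: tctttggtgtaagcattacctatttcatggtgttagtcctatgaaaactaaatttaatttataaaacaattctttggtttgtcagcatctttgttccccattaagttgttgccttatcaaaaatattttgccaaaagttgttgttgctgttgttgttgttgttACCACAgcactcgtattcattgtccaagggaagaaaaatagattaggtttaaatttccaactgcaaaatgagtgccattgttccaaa
The match in Klrk1 began 129 bases before the start site and that in Klrc1 87 bases before it. RefSeq promoters were matched for 5 of the 7 members, and none for Klrd1 and Klrg1. These 5 have 8 promoters in all, but the 2 windows of Klrc2 overlap and hold the same sites, and the 2 of Klre1 overlap as well, so the 8 are not separate stretches. The RUNX motif was found, on either strand, in 5 of the 8 promoters, which belong to 4 members, and in 14.0% of 32851 mouse promoter windows of the same length. The STAT motif TTCNNNGAA was found in 1 of the 8 promoters, at Klra7, and in 7.02% of all windows. The T-box motif GGTGTGA was found in 0 of the 8 and in 3.33% of all windows.

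Klrd1 was present in every library, and high-dose IL-2 gave the lowest levels. Naive cells held 269.2 CPM (95% Poisson interval 261.7 to 276.8). On day 3 the level was 357.4 CPM without cytokine. With 5 IU/mL it was 265.5 CPM in IL-2, 233.4 in IL-2v and 372.0 in IL-15, and with 50 IU/mL it was 48.3 (45.0 to 51.8), 135.6 and 305.1 CPM in the same order. The 50 IU/mL IL-2 library thus stood below all 6 others of that day.

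On day 5 Klrd1 was at 387.1 CPM without cytokine. With 5 IU/mL it was 794.9 CPM (782.6 to 807.4) in IL-2, the highest of the 21 libraries, 302.4 in IL-2v and 450.3 in IL-15. With 50 IU/mL it was 214.0, 260.7 and 522.4 CPM. On day 10 the 5 IU/mL libraries held 694.3 CPM in IL-2, 351.8 in IL-2v and 182.8 in IL-15, and the 50 IU/mL libraries 104.3, 262.6 and 202.7 CPM. In the order of all 21 levels, which spanned 16.5-fold, 8 of the 20 steps between neighbours had overlapping intervals, so the ranks in the middle are not resolved.

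Klrk1 followed another order. Naive cells held 18.8 CPM (16.9 to 20.9). On day 3 the level was 120.6 CPM without cytokine, and with 5 IU/mL it was 112.5 in IL-2, 97.5 in IL-2v and 131.7 in IL-15. With 50 IU/mL it was 54.3 CPM in IL-2, 140.1 (135.3 to 144.9) in IL-2v, the highest of all libraries, and 98.8 in IL-15. All 7 activated libraries of day 3 were therefore above the naive one.

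On day 5 Klrk1 was at 44.8 CPM without cytokine. With 5 IU/mL it was 79.9 CPM in IL-2, 35.1 in IL-2v and 45.6 in IL-15, and with 50 IU/mL it was 51.6, 97.4 and 51.4 CPM. On day 10 the 5 IU/mL libraries held 90.8 CPM in IL-2, 30.0 in IL-2v and 11.1 (9.80 to 12.6) in IL-15, and the 50 IU/mL libraries 32.3, 91.5 and 18.2 CPM. Both IL-15 libraries of day 10 were near or below the naive level. Over the 21 levels, which spanned 12.6-fold, 12 of 20 neighbouring steps had overlapping intervals.

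**Figure D1:**
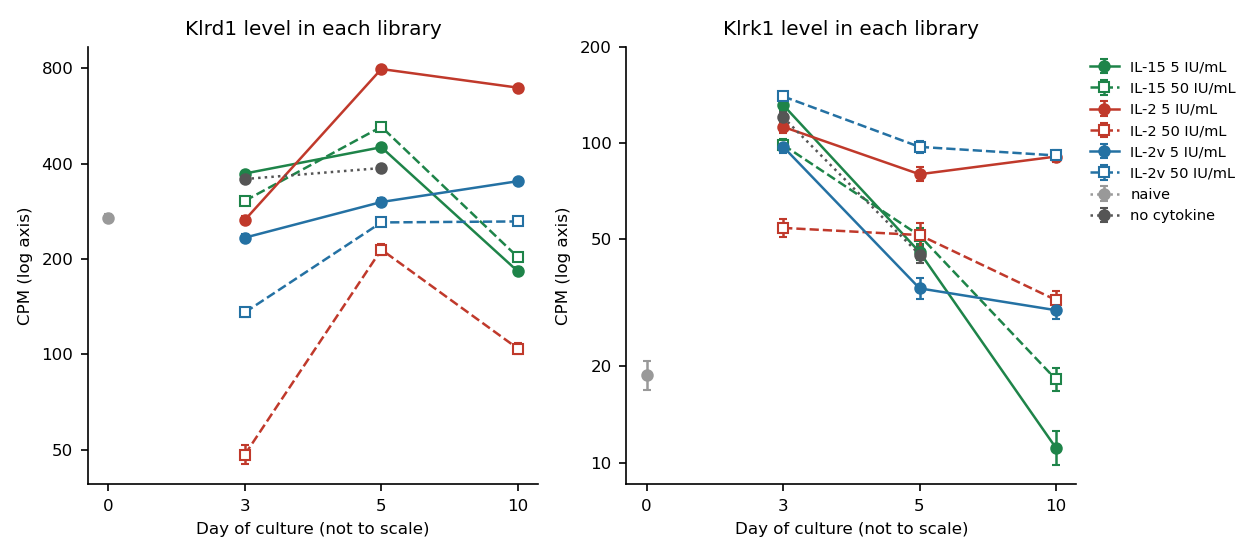
Level of Klrd1 and Klrk1 (CPM) in each of the 21 libraries, by day, cytokine and dose, with bars for exact Poisson 95% intervals. Klrd1 was lowest on day 3 with 50 IU/mL IL-2 at 48.3 CPM, and Klrk1 was highest on day 3 with 50 IU/mL IL-2v at 140.1 CPM.

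Klrc1 and Klrc2, the chains that pair with CD94, were scarce. Klrc1 ran from 1.72 CPM on day 3 with 5 IU/mL IL-15 to 7.74 CPM on day 5 with 50 IU/mL IL-2. It was at 6.71 CPM in naive cells, 2.25 on day 3 without cytokine, and 7.26 and 7.22 CPM on day 10 with 5 and 50 IU/mL IL-2. Klrc2 was highest in naive cells at 7.58 CPM (6.38 to 8.95) and lowest on day 10 with 5 IU/mL IL-2v at 0.766 CPM (0.496 to 1.13). These intervals do not overlap, but every step between neighbours in the order of either gene did.

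Klre1 ranged from 1.33 CPM on day 10 with 5 IU/mL IL-15 to 7.34 CPM on day 5 with 50 IU/mL IL-2v. On day 10 it was at 6.30 CPM (5.40 to 7.32) with 50 IU/mL IL-2v and 2.16 CPM (1.65 to 2.79) with 50 IU/mL IL-2. Klra7 ranged from 0.257 to 3.26 CPM, the latter on day 3 with 50 IU/mL IL-2v. Naive cells held 6.82 CPM (5.68 to 8.12) of Klre1 and 2.38 CPM (1.73 to 3.20) of Klra7, intervals that overlap those of the highest libraries (6.24 to 8.58 and 2.57 to 4.08). Every step between neighbours in the order of either gene overlapped too.

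Klrg1 was highest in naive cells. Its level there was 3.68 CPM (2.86 to 4.67, 68 UMIs), while 11 cultured libraries held 0 UMIs and the highest cultured level was 0.733 CPM (0.448 to 1.13) on day 10 with 50 IU/mL IL-2. A library with 0 UMIs, such as day 10 with 5 IU/mL IL-2v, allows up to 0.0919 CPM by the limit of 3 UMIs. All 7 members were thus detected on day 0, and in the 9 cultured libraries with a Klrg1 UMI its level was below the naive one.

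Raising the dose of IL-2 went with less Klrd1 on each of 3 days. Differences are given as log2(CPM + 1), 50 minus 5 IU/mL, a scale that understates changes of low genes. They were -2.44 on day 3, -1.89 on day 5 and -2.72 on day 10 for IL-2. For IL-2v they were -0.78, -0.21 and -0.42, and for IL-15 -0.29, 0.21 and 0.15, all under 2-fold. Lower Klrd1 at the higher dose was therefore at least 2-fold in the 3 IL-2 pairs, and in cells without a UMI of the cycling genes also in the IL-2v pair of day 3, at -1.49.

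Klrk1 moved in opposite directions with the doses of IL-2 and IL-2v. In IL-2 it differed by -1.04, -0.62 and -1.46 on days 3, 5 and 10, and in IL-2v by 0.52, 1.45 and 1.58. In IL-15 it differed by -0.41, 0.17 and 0.67, the last between levels under 20 CPM. The contrast between IL-2 and IL-2v was not tested, since each value rests on 1 pair of libraries.

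A value was counted where either library of a pair reached 20 CPM, and a difference was called at 2-fold. Because the members were chosen with earlier results of these data known, shares over all genes are set beside member counts only as a description. Klrd1 and Klrk1 gave 17 such values over the 9 dose pairs, of which 2 were higher and 5 lower at 50 IU/mL. Over all genes, 4.58% of values were called higher and 3.38% lower. Within IL-2 6.59% were called lower, and 14.5% in its day 10 pair, and within IL-2v 3.79% were called higher. All 5 lower values came from IL-2, whose 50 IU/mL libraries carry the conflicting treatment labels, and both higher values from IL-2v. Without the pairs that hold such a library 2 calls were left.

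The share of cycling cells also differed within these pairs and its part in the differences was not tested. It was 62.8% and 73.8% with 5 and 50 IU/mL IL-2 on day 3, 18.7% and 50.4% on day 5, and 18.2% and 13.4% on day 10. In cells without a UMI of Mki67 or Top2a alone, the Klrd1 differences in IL-2 were -2.67, -1.55 and -2.79. The Klrk1 differences in IL-2v were 0.06, 1.53 and 1.46 in such cells, so that of day 3 was near 0 there. Trdc was in fewer cells at the higher dose of IL-2, with 22.5% and 17.0% of cells at 5 and 50 IU/mL on day 3, 33.5% and 19.1% on day 5, and 42.2% and 23.8% on day 10. Cd8b1 was too, with 84.3% and 67.3%, 85.0% and 56.7%, and 71.7% and 54.6% in the same order. These shares used all UMIs of each cell, with medians of 4078 and 4436, 3942 and 3016, and 4118 and 5065 UMIs per cell. The NK cell marker list differed in the day 10 IL-2 pair, through Fcer1g. In the day 10 IL-2v pair Fcer1g was at 1.90 and 44.3 CPM at 5 and 50 IU/mL, and Klrb1c differed by 3.13. The parts of Cd8b1 and Fcer1g were not tested, and a Trdc UMI is not read as the mark of an innate-like or gamma delta T cell. Without cells that held Trdc, the NK cell genes Ncr1, Klrb1c or Klra8, or markers of CD4, B, myeloid or red cells, the Klrd1 differences in IL-2 were -2.43, -1.88 and -2.65. Over all alternatives that of day 10 ran from -2.79 to -2.42, and the Klrk1 difference in IL-2v on day 10 ran from 1.34 to 1.76.

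**Figure D2:**
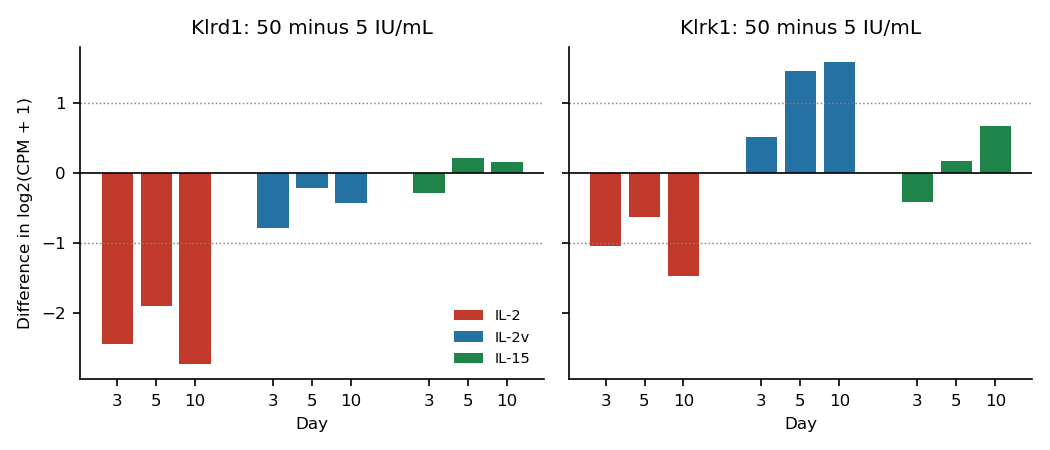
Difference in log2(CPM + 1) between 50 and 5 IU/mL for Klrd1 and Klrk1 on days 3, 5 and 10 within each cytokine, 1 bar per pair of libraries. The IL-2 bars lie below 0 for both genes, and the IL-2v bars lie below 0 for Klrd1 and above 0 for Klrk1.

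At equal day and dose, IL-2v and IL-2 also stood apart. At 5 IU/mL, IL-2v minus IL-2 was -0.19, -1.39 and -0.98 for Klrd1 on days 3, 5 and 10, and -0.20, -1.16 and -1.57 for Klrk1. At 50 IU/mL it was 1.47, 0.28 and 1.32 for Klrd1, and 1.35, 0.90 and 1.48 for Klrk1. Both receptors were thus lower in IL-2v at the low dose and higher at the high dose. Of 12 values, 4 were called higher and 3 lower, where 3.99% and 2.55% of the values of all genes were called. All 4 higher calls were against 50 IU/mL IL-2, so without the libraries of conflicting labels 0 higher calls were left and the 3 lower ones remained.

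Klrd1 was higher in IL-15 than in IL-2 at the high dose on 3 of 3 days. At 50 IU/mL, IL-15 minus IL-2 was 2.63, 1.28 and 0.95 for Klrd1 and 0.85, -0.01 and -0.79 for Klrk1. At 5 IU/mL it was 0.48, -0.82 and -1.92 for Klrd1 and 0.23, -0.80 and -2.92 for Klrk1, so both were lower in low-dose IL-15 by day 10. Of 12 values, 2 were called higher and 2 lower, against 3.21% and 5.68% over all genes. In cells without a cycling UMI 4 were higher and 2 lower. Both higher calls compared libraries of conflicting labels, and without these 0 higher and 2 lower were left. The lower call of Klrk1 passed the minimum through IL-2 alone, since 5 IU/mL IL-15 held 11.1 CPM on day 10.

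Between IL-2v and IL-15, Klrd1 was lower in IL-2v on days 3 and 5 and Klrk1 higher on day 10. For Klrd1, IL-2v minus IL-15 on days 3, 5 and 10 was -0.67, -0.57 and 0.94 at 5 IU/mL and -1.16, -1.0 and 0.37 at 50 IU/mL, where the day 5 value was just short of a call. For Klrk1 it was -0.43, -0.37 and 1.36 at 5 IU/mL and 0.50, 0.91 and 2.27 at 50 IU/mL. Of 12 values, 2 were called higher and 1 lower, against 6.15% and 2.48% over all genes. Both higher calls were Klrk1 on day 10, where the IL-15 libraries held 11.1 and 18.2 CPM. These values passed the minimum through IL-2v alone and could only be called higher. With TMM scaling 5 values were called, and without libraries of conflicting labels 1.

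Over time the 2 receptors parted. From day 3 to day 10 Klrd1 was higher in IL-2 by 1.38 and 1.10 at 5 and 50 IU/mL and in IL-2v by 0.59 and 0.95, and it was lower in IL-15, by -1.02 and -0.59. Klrk1 was lower in all 6 pairs, by -0.31 and -0.73 in IL-2, -1.67 and -0.61 in IL-2v, and -3.45 and -2.38 in IL-15. Of 12 values, 2 were called higher and 4 lower, where 3.77% and 12.4% of all values were called. The lower calls of Klrk1 in IL-15 passed the minimum through day 3 alone, since day 10 held 11.1 and 18.2 CPM. In cells without a cycling UMI the increases of Klrd1 in IL-2 were 0.90 and 0.78, under 2-fold, and that in 50 IU/mL IL-2v was 1.02, just over 2-fold, while the share of cycling cells was lower on day 10 than on day 3 in all 6 pairs.

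The steps before and after day 5 differed between cytokines. From day 3 to day 5 Klrd1 differed by 1.58 and 2.13 in IL-2 at 5 and 50 IU/mL, 0.37 and 0.94 in IL-2v, and 0.28 and 0.77 in IL-15. Klrk1 differed by -0.49 and -0.07, -1.45 and -0.52, and -1.51 and -0.93 in the same order. Of 12 values, 2 were called higher and 2 lower, against 1.79% and 5.25% over all genes.

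From day 5 to day 10 Klrd1 differed by -0.20 and -1.03 in IL-2, 0.22 and 0.01 in IL-2v, and -1.30 and -1.36 in IL-15. Klrk1 differed by 0.18 and -0.66, -0.22 and -0.09, and -1.94 and -1.45. Of 12 values, 0 were called higher and 5 lower, against 2.73% and 7.68% over all genes. The lower calls of Klrk1 in IL-15 passed the minimum through day 5 alone, since day 10 held 11.1 and 18.2 CPM. In 50 IU/mL IL-2 Klrd1 was thus higher on day 5 than on day 3 and lower again on day 10, and in IL-15 its lower level on day 10 was reached after day 5. Between days 5 and 10 in 50 IU/mL IL-2, 19.4% of genes were called lower. The Klrd1 difference of that pair ran from -1.41 to -0.7 over the alternatives.

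Bead activation without cytokine went with more Klrk1. From naive cells to day 3 Klrk1 differed by 2.62 and Klrd1 by 0.41, where 11.1% of all genes tested were called higher and 8.31% lower. Klrk1 was at 18.8 CPM in naive cells, so it passed the minimum through day 3 alone and could only be called higher. From day 3 to day 5 without cytokine Klrk1 differed by -1.41 and Klrd1 by 0.11, where 3.61% and 9.47% of genes were called higher and lower. The cytokine libraries of a day share the same library without cytokine, so their differences from it are not independent. On day 3 high-dose IL-2 (50 IU/mL) gave -2.86 for Klrd1 and -1.14 for Klrk1, and high-dose IL-2v gave -1.39 and 0.21. On day 5 Klrd1 differed by 1.04 with 5 IU/mL IL-2 and Klrk1 by 1.10 with 50 IU/mL IL-2v. Of 24 such values, 2 were called higher and 3 lower, against 6.31% and 2.04% over all genes, and in the pair of 50 IU/mL IL-2v on day 5 alone 21.1% of genes were called higher.

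Shares of cells with each member were taken after each cell was thinned to 2000 UMIs, which left out 57 to 393 cells per library. Klrd1 was found in 8.84% of cells (95% Clopper-Pearson interval 7.90 to 9.86) on day 3 with 50 IU/mL IL-2 and in 72.5% (71.2 to 73.8) on day 5 with 5 IU/mL IL-2. Without thinning the lowest and highest shares were 17.3% and 87.9%. On day 10 IL-2 gave 65.7% of cells at 5 IU/mL and 16.1% at 50 IU/mL. The order of the shares followed that of the CPM at both ends. At 2000 UMIs per cell such a share depends on the mean level, so it is not a separate result. It cannot tell fewer cells with Klrd1 from less Klrd1 in each cell.

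Klrk1 was found in 1.78% of cells (1.44 to 2.17) on day 10 with 5 IU/mL IL-15 and, at its highest, in 22.5% (21.2 to 23.7) of day 3 cells in 50 IU/mL IL-2v. In naive cells it was 2.28%. Klrc1 was found in 0.244% to 1.47% of cells, Klrc2 in 0.0887% to 1.22%, Klre1 in 0.167% to 1.21%, Klra7 in 0.0333% to 0.331% and Klrg1 in 0% to 0.492%. These libraries held no cell type known to lack the receptors, so free RNA as a source of scattered UMIs was not tested.

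**Figure D3:**
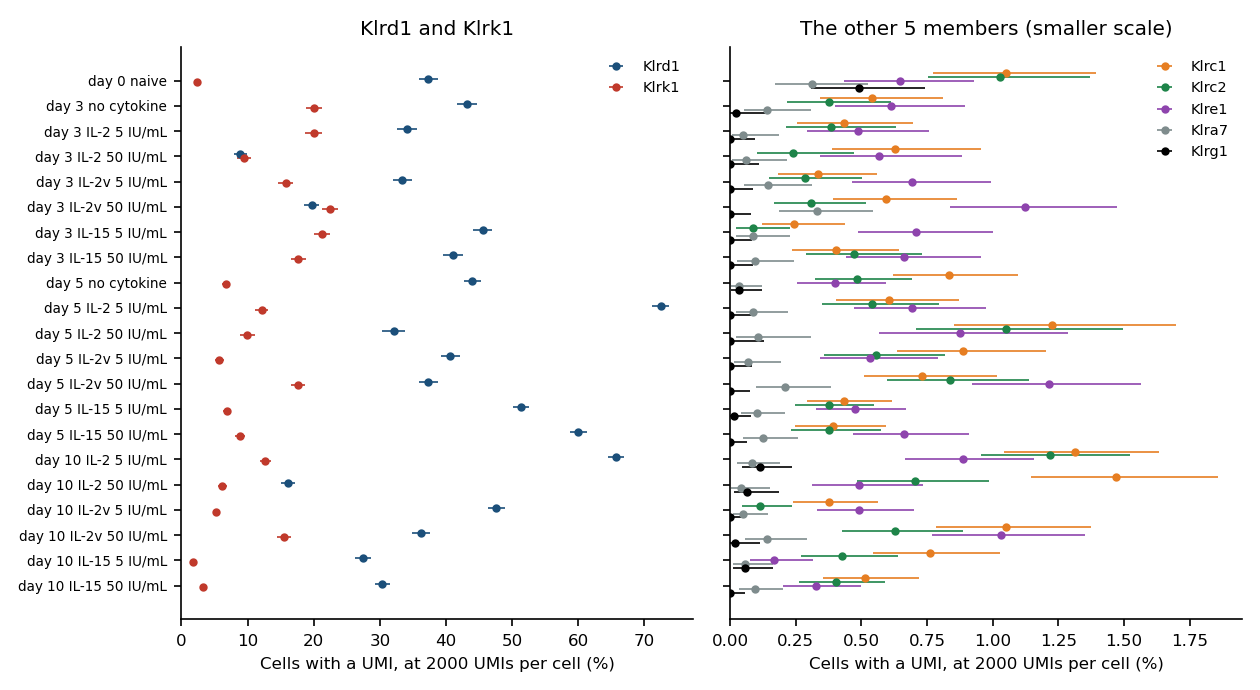
Percent of cells with at least 1 UMI of each member in each library after thinning to 2000 UMIs per cell, with exact 95% binomial intervals. Klrd1 runs from 8.84% to 72.5%, Klrk1 from 1.78% to 22.5%, and the other members stay at or below 1.47%.

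Within libraries Klrk1 went together with Klrd1. The share of cells with Klrk1 was higher among cells with a Klrd1 UMI than among those without, with intervals that did not overlap, in 20 of 21 libraries. Over all genes found in at least 10 cells of a library, 1.17% of gene and library values were higher in this way. Klrk1 was in 96 to 1019 cells per library, so this share is not matched to it in detection. The exception was day 3 with 50 IU/mL IL-2, where Klrd1 itself was scarcest. The ratio of the 2 shares ran from 1.40 to 3.24 with a median of 1.85. On day 10 with 50 IU/mL IL-2 Klrk1 was in 14.7% (12.2 to 17.4) of 757 cells with Klrd1 and 4.52% (3.89 to 5.22) of 3936 cells without. Across the libraries, by contrast, the levels of both genes had a Pearson correlation of 0.19 and a Spearman correlation of 0.11 over 21 libraries, given as a description.

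**Figure D4:**
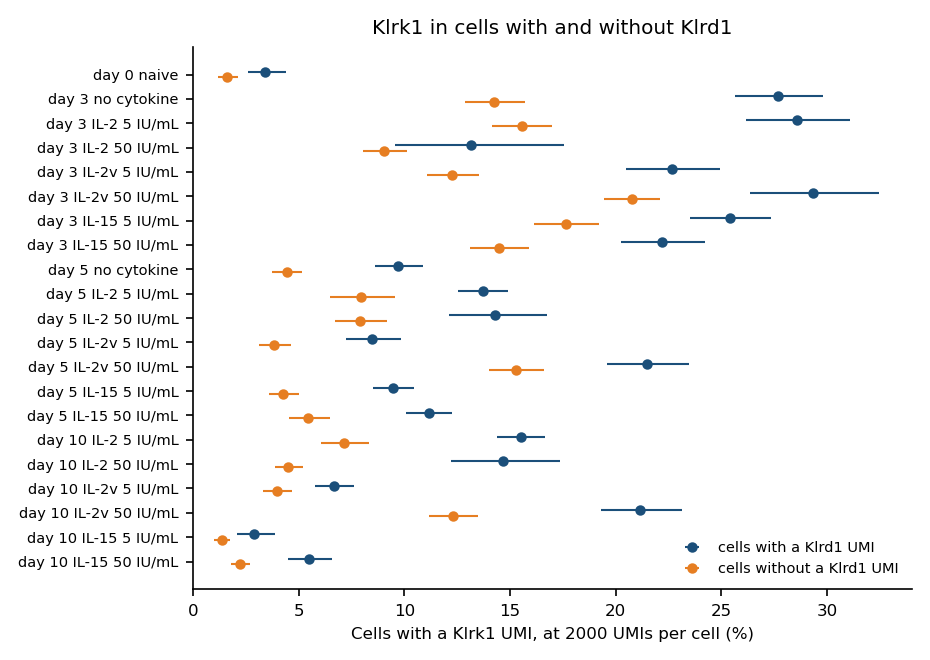
Percent of cells with a Klrk1 UMI among cells with and without a Klrd1 UMI in each library after thinning, with exact 95% binomial intervals. The share is higher in the cells with Klrd1 in 20 of 21 libraries by intervals that do not overlap.

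The NKG2 chains that need CD94 at the surface showed the same direction with less precision. Klrc1 was higher among cells with Klrd1 in all 21 libraries by point value and in 12 by intervals that did not overlap, and Klrc2 in 21 and 5. Thinned to 1000 UMIs these counts were 5 and 2. Without cells that held Trdc or the other markers left out above they were also 5 and 2, and with Trdc not used 11 and 5. Over all genes found in at least 10 cells of a library, 1.17% of values were higher by intervals that did not overlap. That minimum was not applied to Klrc1 and Klrc2, and Klrc2 was in 4 cells on day 3 with 5 IU/mL IL-15. On day 10 with 5 IU/mL IL-15, Klrc1 was in 1.55% (0.988 to 2.32) of cells with Klrd1 and 0.460% (0.273 to 0.726) of cells without. Klrd1 was lower in cells with a UMI of Mki67 or Top2a than in other cells in 16 libraries and higher in 0, where 3.22% of the values of all genes were lower in this way. That share takes genes from 10 cells up and is not matched to Klrd1, which was in 296 to 3995 cells per library. The ratios of the Klrd1 shares in cells with and without a cycling UMI ran from 0.624 to 1.05 over all 21 libraries. Without thinning it was lower in 7.

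On day 0 most of the scarce receptors lay in cells with Ccl5, a chemokine gene that memory CD8 T cells express. Of 4471 thinned naive cells, 451 (10.1%) held a Ccl5 UMI. Klrc1 was in 9.98% (7.37 to 13.1) of these and 0.0498% of the other 4020, and Klrc2 in 9.76% and 0.0498%. Klrk1 was in 15.7% (12.5 to 19.4) and 0.771%, Klrg1 in 4.43% and 0.0498%, and Klra7 in 2.44% and 0.0746%. Klre1 was in 6.43% of the cells with Ccl5 and in 0 of 4020 others, where the limit of 3 cells allows up to 0.0746%. Without thinning it was in 3 of 4208 others, and after thinning to 1000 UMIs in 3 of 4330. Of all genes found in at least 10 cells of this library, 5.83% were more frequent in the cells with Ccl5 by intervals that did not overlap. Klrd1 was in 42.4% (37.7 to 47.1) and 36.8% (35.3 to 38.3), intervals that overlap. They did not overlap without thinning, with 60.8% (56.7 to 64.8) and 52.5% (50.9 to 54.0), nor after thinning to 1000 UMIs or without possible doublets. Without cells that held markers of other cell types they did overlap, with 40.5% (34.8 to 46.3) and 35.4% (33.6 to 37.3). With Trdc not used as such a marker they overlapped as well.

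The Ccl5 cells of day 0 also held genes of memory CD8 T cells more often. Il2rb, the beta chain that IL-2 and IL-15 share, was in 43.9% of them and 9.50% of the others. Cxcr3, a chemokine receptor of memory and effector T cells, was in 27.5% and 3.13%, Cd44 in 14.4% and 2.86%, and Eomes in 11.8% and 3.53%. Cd3d was in 80.0% and 82.9% of these cells thinned to 2000 UMIs, beside 93.4% of naive cells when all UMIs were used. Cd8b1 was in fewer of the cells with Ccl5, with 69.2% (64.7 to 73.4) and 79.4% (78.1 to 80.6), and Cd8a was in 49.0% and 55.5%. The NK cell genes Ncr1 and Klra8 were in 0 cells of either. Other NK cell genes were more frequent in the cells with Ccl5, with Klrb1c in 3.33% and 0.0995%, Fcer1g in 1.77% and 0.0995%, and Tyrobp in 1.77% and 0.0746%. Klra9 was in 0.665% and 0.0249%, and Klra4 in 0.222% and 0%, both with intervals that overlap. Of the innate-like and gamma delta T cell genes, Trdc was in 22.4% and 26.6%, Trdv4 in 3.33% and 0.0995%, Tcrg-C1 in 4.43% and 1.09%, and Zbtb16 in 0.887% and 0.124%. Without cells that held Trdc, Klrb1c or the other markers left out above, Klrc1 was in 7.48% of the cells with Ccl5 and 0 of 2535 others, Klre1 in 4.08% and 0, Klrc2 in 6.80% and 0.0789%, Klrk1 in 11.9% and 0.631%, Klrg1 in 5.44% and 0.0789%, and Klra7 in 3.40% and 0.118%. The parts of Fcer1g, Tyrobp, Tcrg-C1 and Trdv4, which were not used there, were not tested. Of the 116 naive cells with Klrc1, Klrc2, Klre1, Klra7 or Klrg1, 92.2% held Ccl5, 79.3% Cd3d, 69.8% Cd8b1, 25.0% Trdc, 6.03% Trdv4, 5.17% Tcrg-C1 and 0 Zbtb16 or Ncr1. Klrb1c was in 9.48% of them and Tyrobp in 4.31%.

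The split by Ccl5 was then extended to the cultured libraries, a choice made after the day 0 result was seen. Klrc1 and Klrc2 were each higher in cells with Ccl5 in 15 of 20 cultured libraries by intervals that did not overlap, Klrd1 in 13, Klre1 in 11, Klrk1 in 9, Klra7 in 2 and Klrg1 in 0, and no member was lower in any. Over all genes found in at least 10 cells of a library, 1.21% of gene and library values were higher in this way. Klrg1 was in at most 7 cells of a cultured library and Klra7 in at most 15, so few calls were possible for them. The 5 scarce members were in at most 1.47% of cells, so the lack of lower calls says little about them. Cells with Ccl5 made up 5.26% of cells on day 10 with 50 IU/mL IL-2 and up to 44.8% on day 5 without cytokine, so the intervals differ in width between libraries. On day 10 with 5 IU/mL IL-15, Klrk1 was in 5.46% of cells with Ccl5 and 0.632% of those without. On day 3 without cytokine it was in 22.9% and 19.6%, with overlapping intervals.

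**Figure D5:**
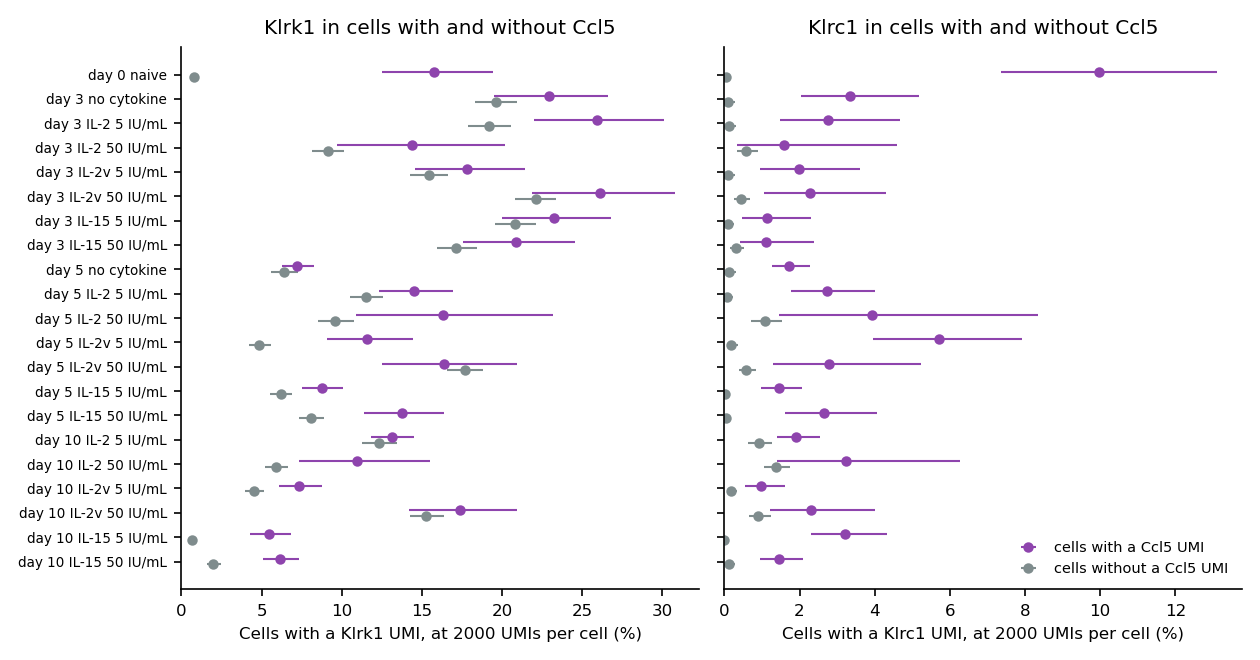
Percent of cells with a Klrk1 or Klrc1 UMI among cells with and without a Ccl5 UMI in each library after thinning, with exact 95% binomial intervals. On day 0 Klrc1 is in 9.98% of cells with Ccl5 and 0.0498% of those without. Klrk1 is higher in cells with Ccl5 in 10 of 21 libraries by intervals that do not overlap.

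The scarce members also met in the same cells. By intervals that did not overlap, Klre1 was more frequent among cells with Klrc1 than among those without in 16 of 21 libraries, and Klra7 among cells with Klre1 in 10. The values of all genes were higher in this way for 1.31% in the split by Klrc1 and 1.11% in that by Klre1. These cover genes found in at least 10 cells of a library, a minimum not applied to the members. Klra7 was in 2 to 15 cells per library, so its count is not matched to the 1.11%. On day 10 with 5 IU/mL IL-2, Klre1 was in 10 of 80 cells with Klrc1 (12.5%, 6.16 to 21.8) and 0.733% of 6003 cells without. Klrc2 was more frequent among cells with Klrc1 in 14 libraries, though it is not stated how reads from their shared stretches were counted. Thinned to 1000 UMIs, the counts for Klre1 and Klrc2 were 7 and 7 and that for Klra7 was 3. These splits were chosen after the data were seen.

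Of 20 other killer lectin-like receptor genes listed, 17 were in the tables and only Klrb1c, the gene of NK1.1, reached 20 CPM. It did so on day 10 with 22.0 CPM in 5 IU/mL IL-2, 21.3 in 50 IU/mL IL-2 and 36.7 in 50 IU/mL IL-2v, and it was at 3.57 CPM in naive cells and at or below 0.381 CPM on day 3. Day 10 minus day 3 ran from 0.00 to 4.77 over the 6 pairs, with a median of 3.17. Klra5, a Ly49 gene, reached 11.6 CPM on day 10 with 50 IU/mL IL-2 and at most 0.762 CPM on day 3.

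Adaptors differed between the receptors' partners. Hcst, which encodes the NKG2D partner DAP10, was lowest on day 3 with 50 IU/mL IL-2, at 80.6 CPM, and highest on day 10 with 50 IU/mL IL-15, at 670.3 CPM. It was higher on day 10 than on day 3 in 6 of 6 pairs, by a median of 1.76, while Klrk1 was lower in all 6. At the higher dose it was lower in 3 of 3 pairs of IL-2, by a median of -0.75, and in 3 of 3 of IL-2v, by -0.53. Tyrobp, which encodes DAP12, the partner of NKG2C, was at most 1.795 CPM. Fcer1g, the Fc receptor gamma chain, was at 113.2 CPM on day 10 with 50 IU/mL IL-2 and 44.3 CPM with 50 IU/mL IL-2v. Of 12 adaptor and signalling genes, 9 reached 20 CPM in some pair of day 10 and day 3. Of their 50 values, 7 were called higher and 1 lower on day 10 against day 3, where 3.77% and 12.4% of all values were called, and their median of -0.02 stood beside -0.19 over all genes tested. Of the 7, 5 were Hcst and 2 were Fcer1g, which passed the minimum through day 10 alone.

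Ligand genes were also expressed by these T cells. Of 16 listed, 9 were in the tables. H2-T23, whose product is bound by CD94 with NKG2, was lowest on day 3 with 50 IU/mL IL-2, at 113.1 CPM, and highest on day 5 without cytokine, at 351.4 CPM. At the higher dose it was lower in 3 of 3 pairs of IL-2, by a median of -1.18, in 3 of 3 of IL-15, by -0.30, and in 2 of 3 of IL-2v, by -0.36. It was also lower with cytokine than without in 12 of 12 pairs, by a median of -0.52. Ulbp1, a ligand of NKG2D, ran from 3.22 CPM on day 10 with 5 IU/mL IL-15 to 39.5 CPM on day 10 with 50 IU/mL IL-2v. It was higher in IL-2v at 50 than at 5 IU/mL in 3 of 3 pairs, by a median of 0.81, and Klrk1 was too. Cdh1, which encodes E-cadherin, a ligand of KLRG1, was at most 1.47 CPM on day 3 and reached 51.8 CPM on day 10 with 50 IU/mL IL-2. No count of ligand calls between day 3 and day 10 is read here, since Cdh1 passed the minimum through day 10 alone and could only be called higher. Ulbp1 differed by -1.77 to 0.90 over these pairs.

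Transcription factors known in NK and memory CD8 T cells were followed beside the receptors. Of 16 factors, 13 reached 20 CPM in some pair of day 10 and day 3. Of their 71 values, 12 were called higher and 23 lower on day 10 against day 3, beside 3.77% and 12.4% of all values, with a median of -0.63 where all genes tested had -0.19. In 4 of the 12 and 18 of the 23, a library of the pair was under 20 CPM, so that the value could pass the minimum only through the other. Eomes, a T-box factor of memory T cells and NK cells, was higher in 6 of 6 pairs by a median of 2.63, and Ikzf2, which encodes Helios, lower in 6 of 6 by -2.62. With the higher dose of IL-2, Tcf7, which encodes TCF-1, was lower in 3 of 3 pairs by a median of -2.07, and Nfil3, a factor needed for NK cell development, was higher by 1.85. In IL-2v the same step gave -1.67 for Tcf7 and 2.09 for Nfil3, whereas Klrk1 moved in opposite directions in these cytokines. Of 35 values for the IL-2 dose, 6 were called higher and 8 lower, beside 7.98% and 6.59% of all values, with a median of -0.27 beside 0.03 over all genes tested. Of 34 for IL-2v, 5 were called higher and 5 lower, beside 3.79% and 2.55% of all values, with a median of -0.25 beside 0.07. Over the dose pairs of all cytokines, a library was under 20 CPM in 7 of 13 higher and 9 of 17 lower calls. The direction of those calls was set by the library that passed the minimum, so these dose counts are not read beyond a description. Il2ra, the IL-2 receptor alpha chain, was higher at the higher dose by medians of 1.71 in IL-2, 1.33 in IL-2v and 1.11 in IL-15.

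The genes whose levels across the 21 libraries were most like a member's were ranked by Pearson correlation of log2(CPM + 1) among 5495 genes. For Klrd1 these were Lsp1 and Cd96 (both 0.85), Pycard (0.84), Calhm6 and Gmfg (both 0.83). For Klrk1 they were Il3ra (0.90), Lrmp, Tstd3 and Unc93b1 (each 0.86) and Dtx3 (0.85). No gene was in both groups of 5. The libraries share days and cytokines and are not independent, so these correlations are descriptions.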

How the data were processed

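The authors deposited 1 table of whole-number counts per library (genes by cell barcodes), treated here as UMI counts. The submitters' processing notes name Cell Ranger, Seurat 4.0.1 and 3.0.2, and mm10, without their roles. Of 106458 barcodes, 106456 passed minimums of 1000 UMIs and 500 genes and a maximum of 10% mitochondrial UMIs, doublets were not removed in the main values, and counts were summed per library to CPM. Differences used log2(CPM + 1), with 20 CPM required in either library. Calls were 2-fold differences. Shares of the members, and shares in splits by another gene, used cells thinned to 2000 UMIs. Those of T cell markers, Trdc and cycling cells per library used all UMIs. Intervals were exact, at 95%. With 1 library per condition no model was fitted. The members and lists were chosen with earlier results of these data known. All members are named, with up to 3 genes per list and comparison and the 5 genes most like each member that reached 20 CPM. Alternatives changed the cell filters, scaling, pseudocount, minimum level, thinning and libraries used. TMM factors came from edgeR 4.0.16. Other steps used Python 3.11.15, pandas 2.3.3 and scipy 1.17.1, and scripts were tested on simulated data. Positions are from GENCODE (GRCm38).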

Additional observations from a re-analysis of the deposited data

Results flagged for a closer look

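Each result here was picked because its pairs on 3 of 3 days lay on one side of 0 in one setting and on the other side in another. None of these differences was tested, because each value rests on 1 pair of libraries, and days are not replicates. The Klrk1 difference between 50 and 5 IU/mL had a median of -1.04 over the days in IL-2 and 1.45 in IL-2v. The Klrd1 difference of IL-2v minus IL-2 had a median of -0.98 at 5 IU/mL and 1.32 at 50 IU/mL. For Klrk1 the same difference had a median of -1.16 at 5 IU/mL and 1.35 at 50 IU/mL. All of these values come from the same IL-2 and IL-2v libraries, compared by dose or by cytokine, so they are not separate pieces of evidence.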

How the results depend on the processing

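All 43 called differences of Klrd1 and Klrk1 kept their direction under 9 alternatives, and 37 to 43 stayed at 2-fold, fewest with a pseudocount of 10. The sign changed in 10 of 118 differences, none above 0.37 in size. Member values at least 2-fold apart were 7 of 12 for IL-2v against IL-2, 4 of 12 for IL-15 against IL-2, 3 of 12 for IL-2v against IL-15 and 7 of 17 for dose. Without day 10 they were, in that order, 4, 2 and 1 of 8, and 4 of 12. Without libraries whose labels conflict they were 3, 2, 1 and 2 of 6 each. Fewer pairs were counted in both. With no minimum CPM the first and second were 12 of 39 and 7 of 41. For IL-2v against IL-15 it was 5 with TMM and 5 in cells without cycling genes. Klrc1 was higher in cells with Klrd1 in 12 libraries, but in 5 after thinning to 1000 UMIs and in 5 without cells holding markers of other types. For Klrc2 the count was 5, and 2, 14 and 2 with thinning to 1000, without thinning and without such cells. With Trdc not used as a marker these counts were 11 and 5. Klrd1 was lower in cycling cells in 16 libraries and in 7 without thinning. The causes of the other shifts were not tested. The alternatives that dropped Trdc from the markers or left out conflicting labels, and the alternatives for cytokine against no cytokine, were chosen after seeing the data. Depth limits the 5 scarce members, which never reached 20 CPM.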
